A study of Mus musculus with 16 samples.

Results

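The genes described here are 8 of the 32285 listed in the hippocampal single-nucleus RNA-seq tables. They are Parp9, Parp10, Parp11, Parp12 and Parp14 of the PARP family, Dtx3l, Rnf213 and Xaf1. They were selected on measured values, because their UMI counts in WT mice given DMXAA against WT mice given vehicle were known when the list was drawn up. For that contrast the values are therefore a description: which of the genes the fit over all genes called is stated, but these calls come from the values that selected the genes, test nothing about them and are given without p-values. A UMI is a molecular barcode that counts an RNA molecule once, and the UMIs of each gene were summed per library and per class of nuclei. The study asked what type I interferon signalling does to hippocampal cells, using DMXAA, an agonist of mouse STING, in repeated intraperitoneal injections, and its vehicle as control. There were 4 groups of 4 libraries, all from male mice: WT vehicle and WT DMXAA (labelled C57BL/6, aged 2 months and 23 days), and Ifnar1-/- vehicle and Ifnar1-/- DMXAA (aged 3 months and 3 days). The Ifnar1-/- mice (KO in the plots) lack a subunit of the type I interferon receptor in every cell, so genotype and age cannot be told apart. The labels do not say whether each of the 16 libraries came from a separate animal, so p-values measure the spread between these libraries, which may be technical.

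Type I interferons bind their receptor and activate the transcription factor complex ISGF3, which contains IRF9 and switches on interferon-stimulated genes through promoter elements rich in GAAA repeats. Several of these genes encode enzymes of ADP-ribosylation and ubiquitylation. PARP9 and the E3 ubiquitin ligase DTX3L form a complex, PARP14 is a large macrodomain protein, and PARP10, PARP11 and PARP12 transfer single ADP-ribose units. RNF213 is a giant ATPase with ubiquitin ligase activity known for its link to moyamoya disease, and XAF1 is a zinc-finger protein that binds the caspase inhibitor XIAP.

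Parp9, Dtx3l and Parp14 lie close together on mouse chromosome 16 (mm10), with Parp14 at chr16:35832874-35871544 on the minus strand, Dtx3l at chr16:35926511-35939151 on the minus strand and Parp9 at chr16:35938470-35972605 on the plus strand. Dtx3l and Parp9 overlap head to head by 682 bp. Parp12 (chr6:39086410-39118349, minus strand) and Parp11 (chr6:127446840-127494261, plus strand) are far apart on chromosome 6, Xaf1 (chr11:72301629-72313733) and Rnf213 (chr11:119393100-119487418) are on the plus strand of chromosome 11, and Parp10 (chr15:76231174-76243441, minus strand) overlaps Plec on the same strand by 1401 bp. The counting strand is not given in the sources used here, and how reads in these overlaps were assigned was not tested. The same holds for the 38631 bp that Rnf213 shares with the antisense gene A930037H05Rik. It also holds for the 5854 bp that Parp9 shares with the antisense gene Gm15564.

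Promoter windows of 300 bases, from 250 bases before the RefSeq start to 50 bases after it (GRCm38.p6), were matched for 5 of the 8 genes, with 2 start sites for Parp11. They were searched on both strands for the ISRE core GAAANNGAAA (the ISGF3 element), the GAS core TTCNNNGAA (the interferon-gamma activated site) and the shorter IRF element AANNGAAA, which lies inside every ISRE core. Among 32851 promoters of the same length, 3.443% held the ISRE core, 8.298% the GAS core and 23.92% the IRF element. The windows below, each read 5′ to 3′ on its gene's strand with matches in capitals, are shown because Parp11 held the only ISRE core match, Xaf1 and Rnf213 had the largest changes in microglia, and the start of Dtx3l lies inside Parp9.
Parp11 (chr6:127446590-127446889, plus strand): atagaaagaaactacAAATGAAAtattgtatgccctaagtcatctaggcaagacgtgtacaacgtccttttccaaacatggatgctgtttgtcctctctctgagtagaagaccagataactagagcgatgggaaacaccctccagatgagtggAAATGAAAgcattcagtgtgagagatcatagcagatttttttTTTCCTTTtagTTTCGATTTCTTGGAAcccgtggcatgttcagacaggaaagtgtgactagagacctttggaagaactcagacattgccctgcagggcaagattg
Xaf1 (chr11:72301379-72301678, plus strand): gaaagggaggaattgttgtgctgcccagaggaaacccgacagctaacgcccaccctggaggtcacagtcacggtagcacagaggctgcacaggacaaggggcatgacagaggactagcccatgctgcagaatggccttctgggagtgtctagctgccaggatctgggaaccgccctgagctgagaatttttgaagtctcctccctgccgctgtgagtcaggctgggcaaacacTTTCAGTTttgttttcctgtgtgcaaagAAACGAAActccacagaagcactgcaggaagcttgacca
Dtx3l (chr16:35938978-35939277, minus strand): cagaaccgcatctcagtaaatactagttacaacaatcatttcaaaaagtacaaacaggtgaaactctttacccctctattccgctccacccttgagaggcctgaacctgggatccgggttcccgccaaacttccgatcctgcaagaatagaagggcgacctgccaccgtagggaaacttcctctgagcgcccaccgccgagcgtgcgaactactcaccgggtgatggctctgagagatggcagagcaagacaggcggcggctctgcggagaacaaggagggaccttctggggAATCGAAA
Rnf213 (chr11:119389849-119390148, plus strand): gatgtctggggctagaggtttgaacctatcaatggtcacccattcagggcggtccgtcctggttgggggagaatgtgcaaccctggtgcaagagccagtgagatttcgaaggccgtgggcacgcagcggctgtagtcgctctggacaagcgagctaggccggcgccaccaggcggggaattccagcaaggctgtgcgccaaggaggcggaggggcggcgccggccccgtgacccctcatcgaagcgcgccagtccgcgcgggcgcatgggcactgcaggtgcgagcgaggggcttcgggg
The only ISRE core match was in Parp11, at bases -44 to -35 from the start, where it ran into a GAS core match at -37 to -29. That window also held 4 IRF elements, Xaf1 held 2 (-17 to -10 and 11 to 18) and Dtx3l held 1 (42 to 49), while Rnf213, Parp12 and the second Parp11 start held none. The RefSeq start of Rnf213 lies upstream of the gene model quoted above, and a match here describes letters, not a bound site.

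Each library retained 5163 to 9237 nuclei and 32939958 to 52150711 UMIs. Classes were named from fixed markers, and the 8 microglial markers were all detected in microglia (9863 to 10644 CPM in sum in WT vehicle, 6458 to 9725 in WT DMXAA). CPM is the gene's UMIs per 1000000 UMIs of that class in that library. Microglia held 209 to 387 nuclei and 385494 to 849542 UMIs per library, astrocytes 650 to 1079 nuclei, excitatory neurons (EN) 1854 to 4123 and oligodendrocyte precursor cells (OPC) 149 to 262. Ifnar1, the targeted gene, was at 13.2 to 19.1 CPM in WT libraries and 10.5 to 11.8 in Ifnar1-/- libraries, lower but not lost as a transcript. The library WT DMXAA replicate 3 stood apart before any of the 8 genes was considered: it had the lowest Ifnar1 of the WT libraries (13.2 against 16.8 to 19.1 CPM), the lowest Malat1 (23500 against 53140 to 91460 CPM, with 12470 to 27170 in Ifnar1-/-), S100a9 at 10.1 against at most 1.13 CPM, 97 border macrophage nuclei against 4 to 29, and 15.8% of its nuclei in an unnamed cluster of low UMI count against 5.02 to 11.1%. Any 2 libraries shared 12 to 41 barcodes. Its Malat1 lay within the range of the Ifnar1-/- libraries and its Ifnar1 between their range and that of the other WT libraries. What sets this library apart, a wrong label included, was not tested. In its microglia Rnf213 was at 329.6, Parp14 at 201 and Xaf1 at 55.3 CPM, where the Ifnar1-/- libraries reached at most 87.0, 64.5 and 7.78 CPM. These are values of the contrast that chose the genes, so nothing about the label is read from them. Every WT DMXAA mean and SE below includes it unless stated. Whether the label is right was not tested.

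In WT vehicle mice the levels were ranked over the 8 classes plotted here, leaving out clusters without a name and classes with too few nuclei, such as border macrophages (5 to 9 nuclei per library). Parp9, Dtx3l and Parp14 were highest in microglia. For the complex partners, Parp9 was at 66.3 ± 10.4 CPM in microglia (SD, n = 4), 43.1 ± 7.26 in fibroblasts and 13.7 ± 2.70 in astrocytes, with ranges that did not overlap, and at 3.18 ± 0.39 in EN and 1.07 ± 0.34 in oligodendrocytes. Dtx3l followed the same order at the top, with 26.3 ± 5.88 CPM in microglia, 13.4 ± 4.64 in fibroblasts and at most 3.63 ± 3.33 in any other class. Parp14 was at 82.2 ± 10.9 CPM in microglia and 76.0 ± 13.5 in fibroblasts, which overlapped, and at 5.52 ± 3.16 in astrocytes, while EN had 0.24 ± 0.08 and the choroid plexus none in 3 libraries.

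Of these classes, fibroblasts led for Parp10 (32.6 ± 17.0 CPM), Parp12 (58.5 ± 12.4) and Rnf213 (92.0 ± 11.6). Microglia overlapped them for Parp10 (20.3 ± 3.68) and Rnf213 (77.6 ± 9.31), and for Parp12 the choroid plexus ranked next (37.1 ± 8.26) and overlapped microglia (35.4 ± 10.8). Rnf213 was well represented in astrocytes (51.3 ± 11.9) and low in EN (3.93 ± 0.9998). Parp11 had the flattest profile: OPC 46.0 ± 11.9, fibroblasts 38.4 ± 14.4, microglia 34.6 ± 8.46, astrocytes 30.1 ± 3.44 and inhibitory neurons (IN) 24.8 ± 3.20 each overlapped the class ranked above, and even the lowest class, oligodendrocytes, was at 12.7 ± 2.94. Xaf1 was the only gene of the 8 with its highest level in oligodendrocytes, 36.1 ± 5.29 CPM against 14.2 ± 5.31 in microglia with no overlap, and it was at 1.19 CPM or less in every OPC library.

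**Figure D1:**
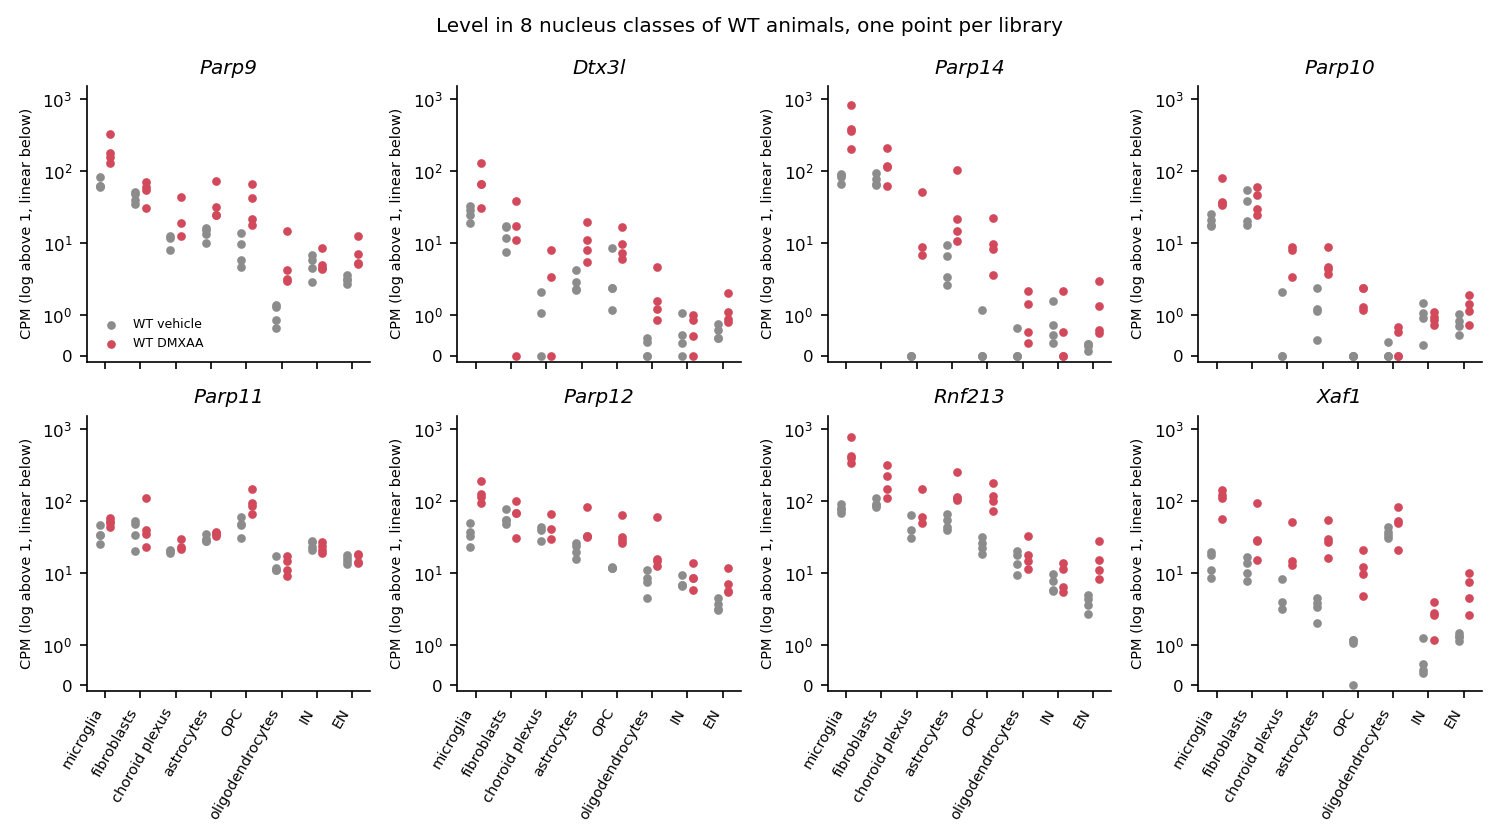
CPM (vertical axis, logarithmic above 1 and linear below) of each gene in 8 classes of WT nuclei (horizontal axis), with 1 point per library, grey for vehicle and red for DMXAA. Parp11 stays between 10.9 and 59.9 CPM over all classes in vehicle, and Xaf1 in vehicle is highest in oligodendrocytes (30.4 to 43.0 CPM).

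The plot of levels by class shows where the genes start from, and the next question was how they stood in WT mice given DMXAA. In microglia, DMXAA libraries lay above all vehicle libraries for 6 of the 8 genes (2.33% of all 8954 genes tested did so). By the edgeR fit 5 of the 8 were called at an adjusted p under 0.05 with a log2 fold change over 0.1, beside 1.8% of all genes, and since this contrast chose the genes nothing follows from either count, in microglia or in the classes below. Parp9 was at 61.6, 81.8, 60.8 and 61.0 CPM in WT vehicle replicates 1 to 4 and at 323, 157, 127 and 179 CPM in WT DMXAA, a log2 fold change of 1.58 ± 0.26 (SE). Its partner Dtx3l was at 19.0, 28.9, 24.6 and 32.6 CPM in vehicle and at 128, 65.1, 30.6 and 65.6 CPM in DMXAA (1.45 ± 0.39). The Dtx3l groups overlapped through replicate 3 of the DMXAA group, and without that library the log2 fold change was 1.68 ± 0.29.

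Parp14, whose protein reads and writes ADP-ribose, was at 66.3, 88.2, 90.3 and 83.8 CPM in vehicle microglia and at 821, 384, 201 and 361 CPM in DMXAA microglia, a log2 fold change of 2.43 ± 0.29. The mono-ADP-ribosyltransferase genes differed among themselves. Parp12, which also carries zinc fingers, was at 49.0, 36.9, 22.998 and 32.6 CPM in vehicle and 186, 122, 94.2 and 112 CPM in DMXAA (1.88 ± 0.25). Parp10 was at 25.3, 20.9, 18.1 and 17.0 CPM in vehicle and 80.5, 37.2, 36.5 and 33.5 CPM in DMXAA (1.23 ± 0.32), with 1 library far above the rest. Parp11 was at 33.2, 33.7, 46.0 and 25.6 CPM in vehicle and 58.3, 49.6, 53.0 and 42.8 CPM in DMXAA (0.60 ± 0.22), and its groups overlapped.

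Rnf213 and Xaf1 had the largest log2 fold changes in microglia. Rnf213 was at 67.9, 89.8, 78.8 and 73.8 CPM in vehicle and at 763, 415, 329.6 and 391 CPM in DMXAA (2.63 ± 0.25), so that the lowest DMXAA library was still above the highest vehicle library. Xaf1 was at 11.1, 17.6, 19.7 and 8.52 CPM in vehicle and at 143, 119, 55.3 and 108 CPM in DMXAA (2.91 ± 0.38). WT DMXAA replicate 1 was the highest of its group for all 8 genes in microglia, and replicate 3 the lowest for 6 of them. Over 42 sets of gene and class, replicate 1 was highest in 38 and replicate 3 lowest in 22. Leaving out replicate 3 moved Parp14 to 2.65 ± 0.21, Rnf213 to 2.74 ± 0.20 and Xaf1 to 3.1 ± 0.28 on the log2 scale and 7 of the 8 genes were then called, Dtx3l and Parp10 among them. Nothing follows from the larger counts without replicate 3. Calls over all genes rose too, in microglia, astrocytes, EN, OPC and oligodendrocytes, and are given in the last section. Leaving out replicate 1 instead moved Parp14 to 1.97 ± 0.20, Rnf213 to 2.33 ± 0.20 and Xaf1 to 2.75 ± 0.39, with 5 called. Calls over all genes without replicate 1 are not given. Nothing is therefore read from the counts called without it, in microglia or in the classes below.

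**Figure D2:**
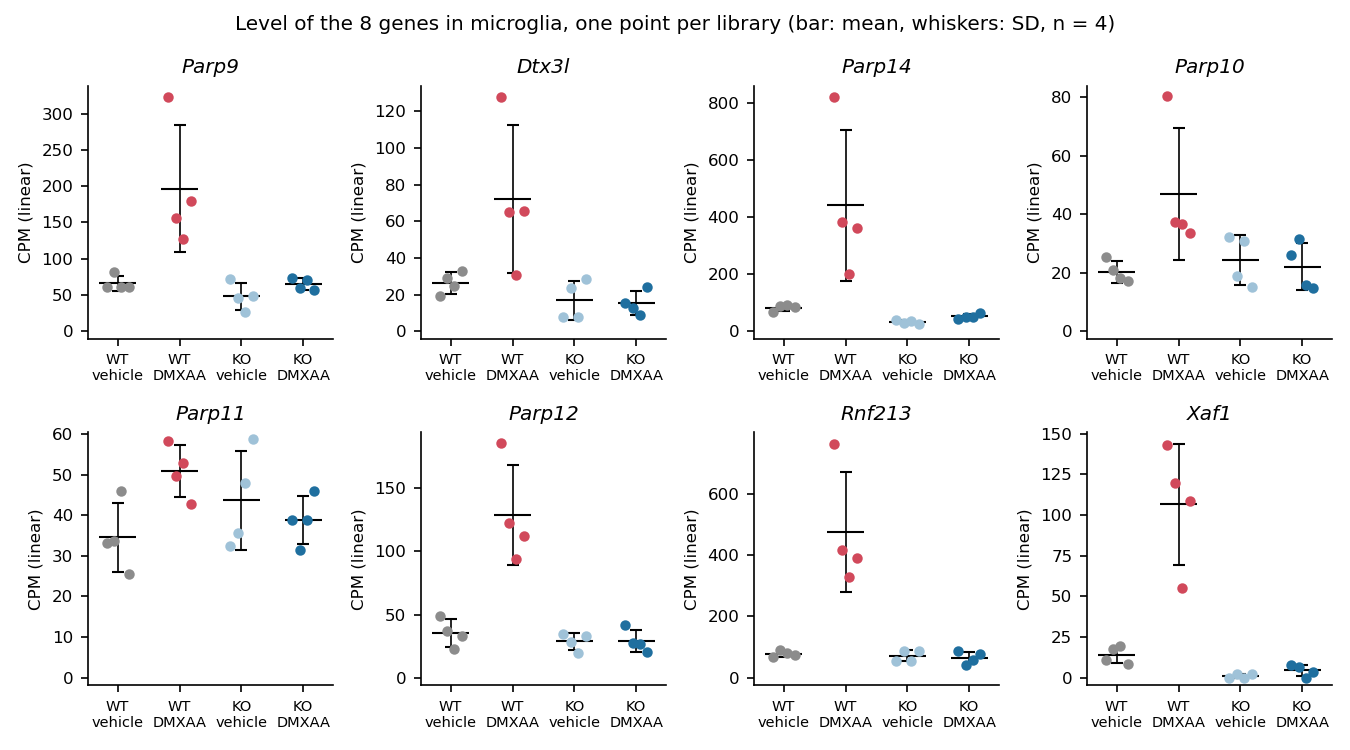
CPM in microglia (vertical axis, linear) of each gene in the 4 groups (horizontal axis), with 1 point per library, the mean as a bar and the SD as whiskers (n = 4). In WT DMXAA replicate 1 is the highest point in every panel, for example 763 CPM for Rnf213, while the Ifnar1-/- libraries stay at or below 87.0 CPM for Rnf213.

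In astrocytes DMXAA libraries of WT mice lay above all vehicle libraries for 7 genes, all but Parp11 (0.734% of all genes), and 4 genes were called (0.225% of all genes): Parp9, Dtx3l, Rnf213 and Xaf1. Xaf1 was at 3.80, 4.51, 3.38 and 2.04 CPM in vehicle and at 54.9, 29.1, 16.2 and 26.7 CPM in DMXAA, a log2 fold change of 3.30 ± 0.39. Rnf213 started much higher, at 54.6, 66.5, 39.8 and 44.0 CPM, and was at 250.2, 114, 109 and 104 CPM in DMXAA (1.59 ± 0.23). Parp14 was at 9.50, 6.57, 3.38 and 2.62 CPM in vehicle and 104, 21.3, 10.6 and 14.9 CPM in DMXAA (2.88 ± 0.60), with DMXAA replicate 1 nearly alone at the top. Parp9 (1.58 ± 0.30), Dtx3l (1.99 ± 0.34), Parp12 (1.16 ± 0.29) and Parp10 (2.16 ± 0.51, on 13 and 50 UMIs) also stood higher. Parp11, at 27.9 to 35.2 CPM in vehicle and 32.8 to 36.6 CPM in DMXAA, differed by 0.33 ± 0.13. The 8 microglial markers, all detected in astrocytes, summed to 100.4 to 139 CPM in vehicle and 80.0 to 126 CPM in DMXAA, and their part in the astrocyte values was not tested. Without WT DMXAA replicate 3 the log2 fold changes were 3.50 ± 0.34 for Xaf1, 1.67 ± 0.22 for Rnf213 and 3.18 ± 0.51 for Parp14, and 7 of the 8 genes were called. Without replicate 1 they were 2.93 ± 0.35 for Xaf1, 1.21 ± 0.14 for Rnf213 and 1.65 ± 0.34 for Parp14, and 4 genes were called, while a fit to the WT libraries alone called 1.

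In EN 6 genes had all DMXAA libraries above all vehicle libraries (0.519% of all genes) and 3 were called (0.124% of all genes): Parp9, Rnf213 and Xaf1. Rnf213 was at 5.02, 3.597, 2.71 and 4.39 CPM in vehicle and 27.5, 15.3, 10.9 and 8.34 CPM in DMXAA (2.04 ± 0.28). Xaf1 was at 1.35, 1.28, 1.16 and 1.49 CPM in vehicle and 10.0, 7.56, 2.63 and 4.49 CPM in DMXAA (2.25 ± 0.33). Parp9 was at 3.13, 3.67, 3.19 and 2.72 CPM in vehicle and 12.6, 6.999, 5.10 and 5.29 CPM in DMXAA (1.30 ± 0.23). These levels are low, but the class is the deepest, and each Rnf213 value rests on 68 to 675 UMIs. The largest log2 fold change in EN was that of Parp14, 2.54 ± 0.48 on 26 and 142 UMIs, which was not called. Dtx3l (1.145 ± 0.29), Parp12 (1.13 ± 0.22) and Parp10 (0.80 ± 0.29) were not called either, and of these only Parp10 had overlapping groups. Microglial markers summed to 68.9 to 91.3 CPM in vehicle EN and to 30.2 to 122 CPM in DMXAA EN. The lowest of these sums was that of replicate 3, and the part of these markers in the EN values was not tested. Without replicate 3 the log2 fold changes were 2.10 ± 0.29 for Rnf213, 2.46 ± 0.28 for Xaf1 and 1.37 ± 0.23 for Parp9, and 5 of the 8 genes were called. Without replicate 1 they were 1.67 ± 0.23, 1.95 ± 0.31 and 0.99 ± 0.18, and 3 were called, while a fit to the WT libraries alone called 0. Parp11 was at 13.4 to 17.9 CPM in vehicle and 13.9 to 18.3 CPM in DMXAA (0.16 ± 0.14), and Parp11 EN molecules nevertheless made up 51.0% of all Parp11 UMIs in WT DMXAA.

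Values were also taken for the neuronal subclasses. In dentate granule neurons 2 of 5 genes tested were called (0.137% of all genes), namely Rnf213 at 4.85, 3.74, 2.96 and 3.61 CPM in vehicle against 40.9, 18.6, 17.2 and 10.4 CPM in DMXAA (2.60 ± 0.31), and Parp12 at 1.35, 1.74, 1.61 and 0.82 CPM against 13.2, 5.45, 4.31 and 3.59 CPM (2.29 ± 0.42). In CA1 neurons 1 of 5 was called (0.0463% of all genes): Xaf1, at 1.41, 1.12, 0.97 and 1.18 CPM in vehicle and 11.5, 10.2, 4.03 and 7.97 CPM in DMXAA (2.83 ± 0.30). None of 6 was called in neurons of cortex and subiculum (0.026% of all genes), where the log2 fold change was 2.15 ± 0.37 for Xaf1 and 1.36 ± 0.33 for Rnf213. Whether these subclasses differ from each other was not tested. In CA3 neurons the log2 fold change of Rnf213 was 1.72 ± 0.35 and that of Parp9 was -0.0041 ± 0.35, the latter with overlapping groups.

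In OPC, the precursors of oligodendrocytes, Parp11 had its largest log2 fold change of the classes in which it passed the count filter, a difference between classes that was not tested. It was at 45.9, 47.5, 59.9 and 30.8 CPM in vehicle OPC and at 148, 92.3, 66.5 and 84.3 CPM in DMXAA OPC, with no overlap and a log2 fold change of 1.15 ± 0.21. It was 1 of 3 genes called of the 4 that passed the count filter in OPC (0.16% of all genes), with Parp12 and Rnf213. Rnf213 was at 18.1, 32.0, 22.4 and 26.0 CPM in vehicle and 175, 98.3, 71.3 and 116 CPM in DMXAA (2.28 ± 0.25), and Parp12 was at 12.1, 11.9, 11.8 and 11.8 CPM against 63.5, 26.4, 31.4 and 28.9 CPM (1.71 ± 0.35). Of the genes below the filter in OPC, Parp14 had 1 UMI over the 4 vehicle libraries and 35 over the 4 DMXAA libraries. The ratio was 37.0, and 24.9 without WT DMXAA replicate 1, which gave 17 of the 35. Xaf1 had 3 and 38 UMIs, a ratio of 13.4, and 10.15 without that replicate. The vehicle UMI of Parp14 came from replicate 2. Dtx3l had 13 and 32 UMIs, 2.6-fold higher in the summed libraries (4.93-fold without WT vehicle replicate 3), and its groups overlapped. Parp10 had none and 6 UMIs, 2.11-fold higher when the vehicle group is set to 3 counts in all. That value leaves out the counting error of the 6 UMIs. The summed ratios belong to the contrast that chose the genes and test nothing, here or in the classes below. The part of microglial molecules in the OPC values was not tested. Without WT DMXAA replicate 3 the log2 fold changes were 1.25 ± 0.19 for Parp11 and 2.42 ± 0.21 for Rnf213, and all 4 genes were called. Without replicate 1 they were 0.91 ± 0.19 and 2.03 ± 0.23, and Rnf213 was the 1 gene called, as it was in a fit to the WT libraries alone.

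In oligodendrocytes 0 of 4 genes tested were called by edgeR (0.0247% of all genes), DESeq2 and limma, and 675 of all genes had an unadjusted p under 0.05. Xaf1 was at 36.8, 34.1, 43.0 and 30.4 CPM in vehicle and 82.4, 52.4, 20.8 and 49.8 CPM in DMXAA (0.61 ± 0.27), and replicate 3 was the only DMXAA library below all vehicle libraries. That library held 1311 of its oligodendrocyte nuclei in the cluster where most Ifnar1-/- oligodendrocytes lay and 2 in the cluster where most WT oligodendrocytes lay, against 11 to 33 and 1289 to 1426 in the other WT DMXAA libraries. Without it the log2 fold change of Xaf1 was 0.86 ± 0.18. Parp12 was at 11.2, 8.53, 4.54 and 7.49 CPM in vehicle oligodendrocytes and 59.7, 14.8, 12.6 and 15.8 CPM in DMXAA (1.78 ± 0.47), and replicate 1 was far above the rest. Its log2 fold change was 1.98 ± 0.42 without replicate 3 and 0.97 ± 0.34 without replicate 1. Xaf1 and Parp12 were called without replicate 3, and neither without replicate 1, where Xaf1 was at 0.30 ± 0.24. Over all libraries the log2 fold change was 0.44 ± 0.31 for Rnf213 and 0.16 ± 0.24 for Parp11.

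Among the genes below the count filter in oligodendrocytes, Parp9 was at 0.68 to 1.40 CPM in vehicle (12 UMIs in all) and 2.98 to 14.9 CPM in DMXAA (76 UMIs), with no overlap and 5.58-fold higher in the summed libraries, but 3.22-fold without WT DMXAA replicate 1, which gave 42 of the 76. Dtx3l had 2 and 25 UMIs, a ratio of 11.02, again with no overlap. Replicate 1 gave 13 of the 25, and the ratio was 6.81 without it, 16.2 without WT vehicle replicate 2 and 17.5 without WT vehicle replicate 4. Parp14 had 2 and 14 UMIs, a ratio of 6.17, and its groups overlapped. Without WT vehicle replicate 2 no vehicle UMI of Parp14 remained. Parp14 was at 0.32 to 2.15 CPM in WT DMXAA oligodendrocytes, against 201.3 to 821.5 CPM in WT DMXAA microglia. The part of microglial molecules in the values of oligodendrocytes, choroid plexus, fibroblasts and IN was not tested. The choroid plexus had 3 libraries a group and none from WT DMXAA replicate 3. Of its 3 genes tested 0 were called, beside 41 of all 9054 genes, with log2 fold changes of 0.11 to 0.91. Below the filter, Parp9 had 19 and 46 UMIs (1.79-fold), Dtx3l 2 and 6 (2.22-fold) and Parp10 2 and 15 (5.55-fold). Parp14 had 0 UMIs in vehicle and 34 in DMXAA, 8.39-fold higher when the vehicle group is set to 3 counts in all. That value leaves out the counting error of the 34. WT DMXAA replicate 1 gave 19 of the 34, and the value was 4.43-fold without it and 3.68-fold without WT vehicle replicate 2. Xaf1 there had 8 and 45 UMIs, 4.16-fold higher in the summed libraries, at 3.21 to 8.35 CPM in vehicle and 12.9 to 51.5 CPM in DMXAA, and 2.88- to 5.93-fold with 1 library left out.

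In fibroblasts 0 of 6 genes were called (0% of all genes, 453 genes at an unadjusted p under 0.05). Rnf213 had the largest log2 fold change (1.16 ± 0.25), at 88.0, 108, 90.5 and 81.1 CPM in vehicle against 312, 218, 148 and 108 CPM in DMXAA. The fibroblast class pooled clusters spread unevenly over the libraries. The smaller held 46 nuclei of WT DMXAA replicate 3 and 9, 49 and 51 of WT vehicle replicates 1, 2 and 4. It held none of the other WT libraries, and its part in the values was not tested. In IN 0 of 4 were called (0% of all genes, 525 genes at an unadjusted p under 0.05), with log2 fold changes of -0.04 to 0.41. Below the filter in IN, Xaf1 had 9 UMIs in vehicle (0.31 to 1.25 CPM) and 43 in DMXAA (1.20 to 3.96 CPM), 4.05-fold higher in the summed libraries (6.45-fold without WT vehicle replicate 4), and its groups overlapped. Dtx3l had 7 and 10 UMIs, Parp10 12 and 15, and Parp14 11 and 12, of which WT DMXAA replicate 1 gave 10.

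**Figure D3:**
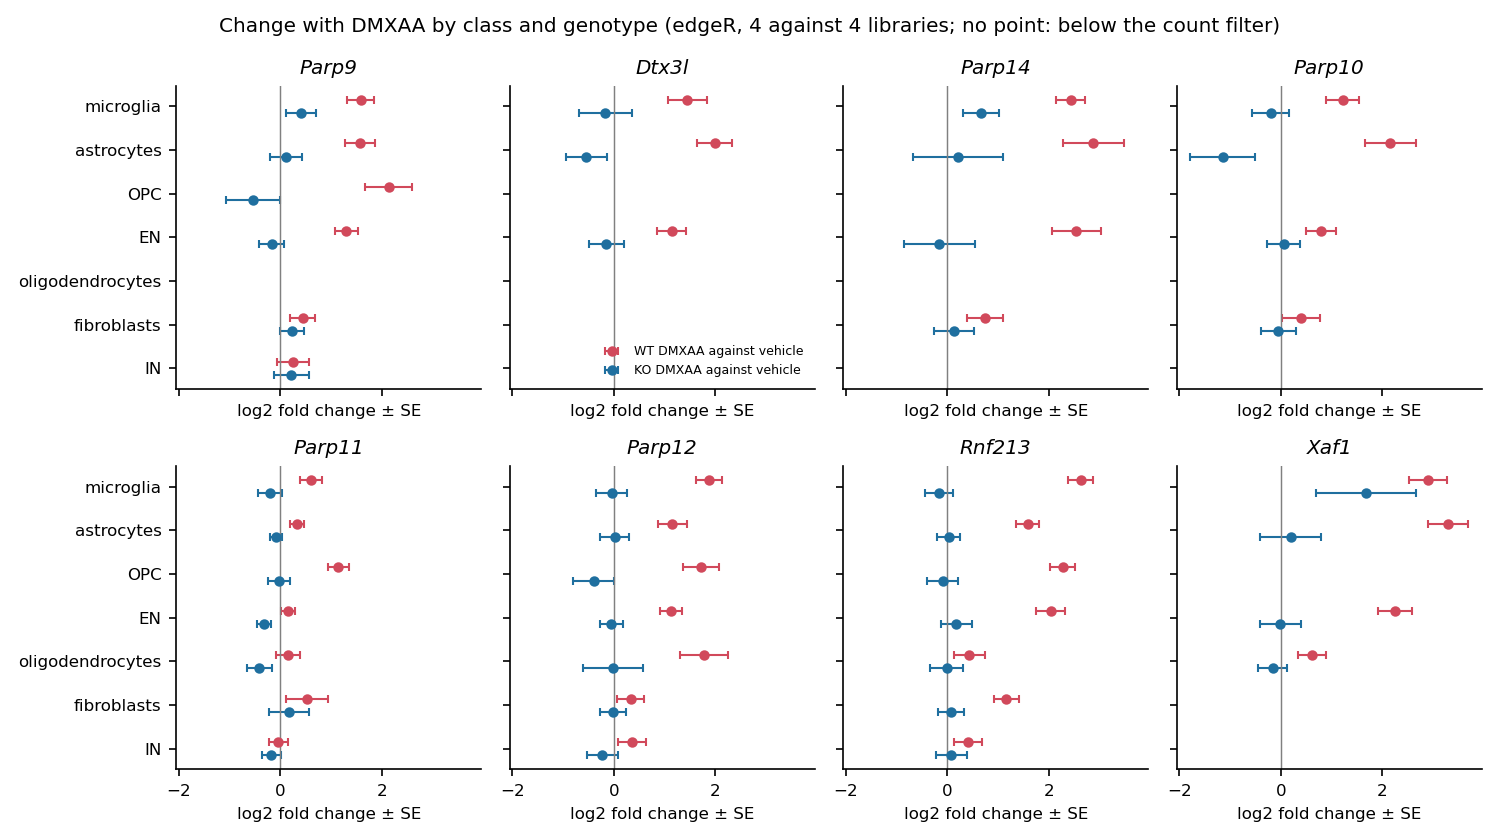
Log2 fold change of DMXAA against vehicle (horizontal axis, point, with the SE as a bar) for each gene in 7 classes (vertical axis), in red for WT and in blue for Ifnar1-/- mice. Red points reach 3.30 for Xaf1 in astrocytes while Parp11 exceeds 1 only in OPC (1.15), and the blue points farthest from 0 are Xaf1 in microglia (1.68 ± 0.99) and Parp10 in astrocytes (-1.14 ± 0.64), both on few UMIs. No point is drawn for a gene below the count filter.

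The share of nuclei with at least 1 UMI of any of the 8 genes was compared after each nucleus was thinned to 1000 UMIs, because depth sets how often a UMI is seen. In WT microglia the share was 25.9 to 30.8% in vehicle and 52.0 to 89.6% in DMXAA libraries (unthinned 44.9 to 48.4% and 74.9 to 95.9%). In Ifnar1-/- microglia it was 17.3 to 27.0% in vehicle and 21.7 to 27.4% in DMXAA. The shares for Parp14 alone were 5.43 to 8.24% in WT vehicle and 14.03 to 53.7% in WT DMXAA, and for Rnf213 6.04 to 8.18% and 26.2 to 49.0%. Nuclei holding UMIs of 2 or more of the genes made up 2.20 to 6.37% of WT vehicle microglia and 17.1 to 60.3% of WT DMXAA microglia.

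In astrocytes the share with any of the 8 was 9.98 to 13.8% in WT vehicle and 18.9 to 42.3% in WT DMXAA, and in EN 2.55 to 3.13% and 3.25 to 8.21%. For comparison, P2ry12, a microglial receptor, was seen in 3.27 to 6.13% of WT vehicle and 2.56 to 6.17% of WT DMXAA astrocytes, and in 4.41 to 6.56% and 0.87 to 8.84% of EN, all thinned alike. Within libraries, the EN share for the 8 genes was below that of P2ry12 in the 4 WT vehicle libraries and in WT DMXAA replicates 2 and 4, and above it in replicate 1 (8.21 against 7.99%) and replicate 3 (3.66 against 0.87%). The source of the EN UMIs was not tested. Left out as too shallow were 7 to 99 astrocyte, 9 to 25 EN and 9 to 31 microglial nuclei per group. Median UMIs per library ran from 1566 to 2144 in microglia, from 2771 to 3733 in astrocytes and from 7647 to 10279 in EN.

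**Figure D4:**
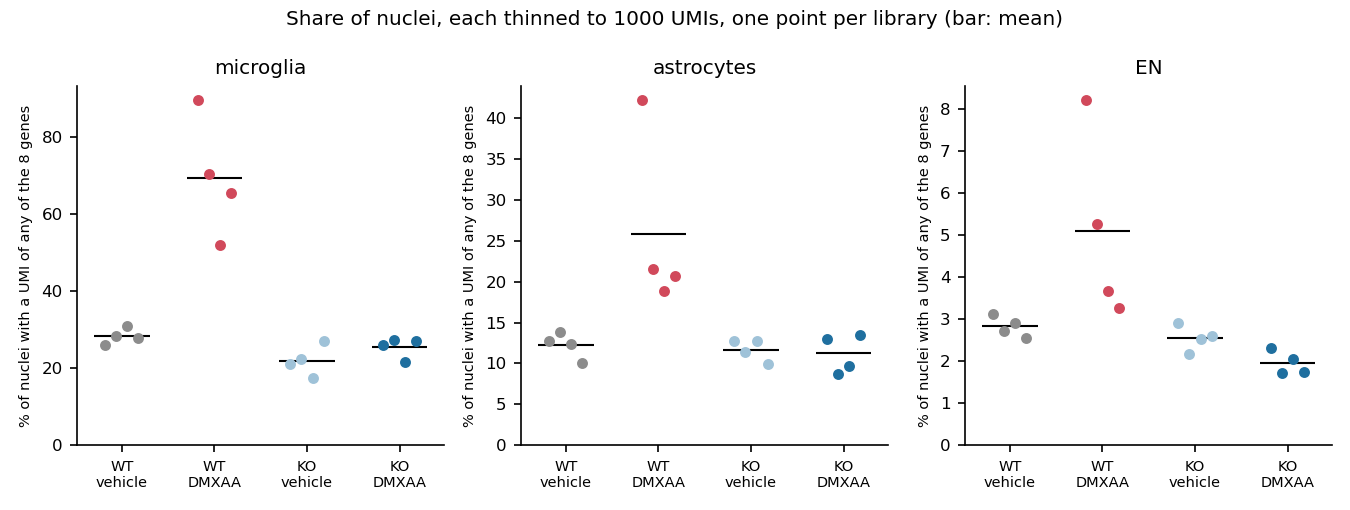
Percent of nuclei (vertical axis) holding a UMI of any of the 8 genes after thinning to 1000 UMIs, by group (horizontal axis), in microglia, astrocytes and EN, with 1 point per library and the mean as a bar. In microglia the WT DMXAA points span 52.0 to 89.6% and the other 3 groups 17.3 to 30.8%.

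To see whether any of the 8 genes responded to DMXAA without the interferon receptor, Ifnar1-/- DMXAA was tested against Ifnar1-/- vehicle, a contrast with no part in choosing the genes. Genes entered this test by a count filter over all 4 groups, and some of the 8 passed it only through libraries outside the contrast: Dtx3l and Xaf1 in microglia, Dtx3l, Parp10, Parp14 and Xaf1 in astrocytes, Parp14 in EN, and Parp9 and Parp12 in OPC. For these the Ifnar1-/- counts alone were below the filter, and nothing is read from the absence of a call. By edgeR's quasi-likelihood test 0 of the other 6 genes were called in microglia, 0 of 4 in astrocytes, 0 of 7 in EN, 0 of 2 in OPC, 0 of 4 in oligodendrocytes and in IN, and 0 of 6 in fibroblasts. The background was 0% of all genes in each of these classes. At an unadjusted p under 0.05 there were 434 genes in microglia, 717 in astrocytes, 997 in EN, 497 in OPC, 446 in oligodendrocytes, 700 in IN and 307 in fibroblasts, and among the 8 genes only Parp11 in EN. DESeq2 and limma called 0 genes in the 5 classes where they were run. Without WT DMXAA replicate 3 in the shared estimate of spread, 103 genes in microglia, 62 in astrocytes and 42 in OPC were called, none of them among the 8.

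In Ifnar1-/- microglia Rnf213 was at 54.8, 85.4, 55.7 and 87.0 CPM in vehicle and at 85.6, 42.1, 56.6 and 77.4 CPM in DMXAA, a log2 fold change of -0.16 ± 0.27 (edgeR, adjusted p = 0.95). Parp9 was at 72.2, 45.1, 26.9 and 47.9 CPM against 72.6, 58.9, 70.7 and 57.1 CPM (0.41 ± 0.29, edgeR, adjusted p = 0.91). The groups overlapped for both. Parp14 was the only gene of the 8 whose Ifnar1-/- DMXAA microglia all lay above their vehicle group (3.34% of all genes did so): 39.8, 28.5, 36.5 and 23.9 CPM against 44.1, 50.5, 49.5 and 64.5 CPM, a log2 fold change of 0.67 ± 0.36 that did not pass (edgeR, adjusted p = 0.91). All of these values were below those of WT vehicle microglia (66.3 to 90.3 CPM). Xaf1 rested on 2 UMIs over the vehicle libraries and 8 over the DMXAA libraries, a ratio of 3.66 (exact 95% interval 0.73 to 35.4). In Ifnar1-/- OPC Parp14 had 0 UMIs in all 8 libraries, and a count of 0 over a group allows up to 3 counts.

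In Ifnar1-/- astrocytes no gene of the 8 had all DMXAA libraries above all vehicle libraries (4.27% of all genes did), and none did in EN (5.67%). Dtx3l in astrocytes was lower in all DMXAA libraries, at 1.53 to 2.01 CPM against 2.08 to 2.96 CPM in vehicle. It was among the genes whose Ifnar1-/- counts alone were below the filter. Rnf213 in astrocytes was at 46.5, 43.7, 50.3 and 45.3 CPM in vehicle and at 48.4, 46.5, 48.5 and 48.6 CPM in DMXAA, a difference of 0.03 ± 0.23 on the log2 scale (edgeR, adjusted p = 0.988). Xaf1 in EN was at 0.66, 0.22, 0.84 and 0.55 CPM against 0.75, 0.36, 0.83 and 0.52 CPM, a difference of -0.01 ± 0.41 (edgeR, adjusted p = 0.997). Parp11 in EN was lower in all DMXAA libraries, at 16.9, 16.8, 17.2 and 16.9 CPM in vehicle and 15.4, 13.7, 13.8 and 15.1 CPM in DMXAA, and with a log2 fold change of -0.32 ± 0.14 it did not pass (edgeR, adjusted p = 0.79). In OPC, where Parp11 had differed most in WT, it was at 53.7, 37.0, 47.7 and 40.0 CPM in vehicle and 50.1, 40.5, 48.1 and 40.4 CPM in DMXAA (-0.02 ± 0.22, edgeR, adjusted p = 0.99). These p-values do not show that the genes stayed the same.

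Vehicle mice of the genotypes were then compared for the level of the genes without an agonist. This contrast shares the WT vehicle libraries with the WT comparison that chose the genes, so its tests are not independent of that choice. The genotypes also differ in age, and in microglia Malat1 was at 44970 to 61090 CPM in WT vehicle and 10240 to 16960 CPM in Ifnar1-/- vehicle. The part of either in the values below was not tested. In microglia Parp14 was called lower in Ifnar1-/- mice (13% of all genes were called), with a log2 fold change of -1.23 ± 0.34 (edgeR, adjusted p = 0.026). Xaf1 was called too, but it passed the count filter only through the WT DMXAA libraries, so its p is not given. It had 36 UMIs in WT and 2 in Ifnar1-/- vehicle, a ratio of 0.079 (exact 95% interval 0.0092 to 0.31, for counting error only). The Ifnar1-/- values lay below every WT value for both, at 23.9 to 39.8 against 66.3 to 90.3 CPM for Parp14 and 0 to 2.37 against 8.52 to 19.7 CPM for Xaf1. The call of Parp14 was lost when any 1 of 5 libraries was left out (Ifnar1-/- vehicle replicate 2 or 4, or WT vehicle replicate 2, 3 or 4), and the direction was kept in each case. Rnf213 differed by -0.02 ± 0.26 in microglia. In fibroblasts Parp14 was the 1 of 6 called (7.52% of all genes), at 64.3, 67.0, 94.0 and 78.6 CPM in WT vehicle and 32.0, 38.2, 26.3 and 20.6 CPM in Ifnar1-/- vehicle, a log2 fold change of -1.31 ± 0.38 (edgeR, adjusted p = 0.043). The part of the uneven fibroblast clusters in this call was not tested.

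Parp11 was called in the other direction in astrocytes (0.46 ± 0.13, 29.7% of all genes called), EN (0.60 ± 0.14, 49.2%), dentate granule neurons (0.52 ± 0.17, 49.2%), CA1 neurons (0.73 ± 0.20, 47%) and neurons of cortex and subiculum (0.57 ± 0.15, 44.9%). With backgrounds of this size a call says little, and it depended on the scaling. When libraries were scaled by their total alone, without TMM (a scaling on the genes that change least), the median of all genes in EN moved from -0.08 to -0.54, Parp11 moved to 0.13 ± 0.11 and was not called, and Parp9, Parp12, Rnf213 and Xaf1 were called lower (-0.74 ± 0.26, -0.82 ± 0.26, -0.90 ± 0.31 and -1.19 ± 0.43). Relative to the median of all genes, Parp11 was higher and Xaf1 lower under both scalings. The calls of Parp14 in microglia and fibroblasts did not depend on it.

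**Figure D5:**
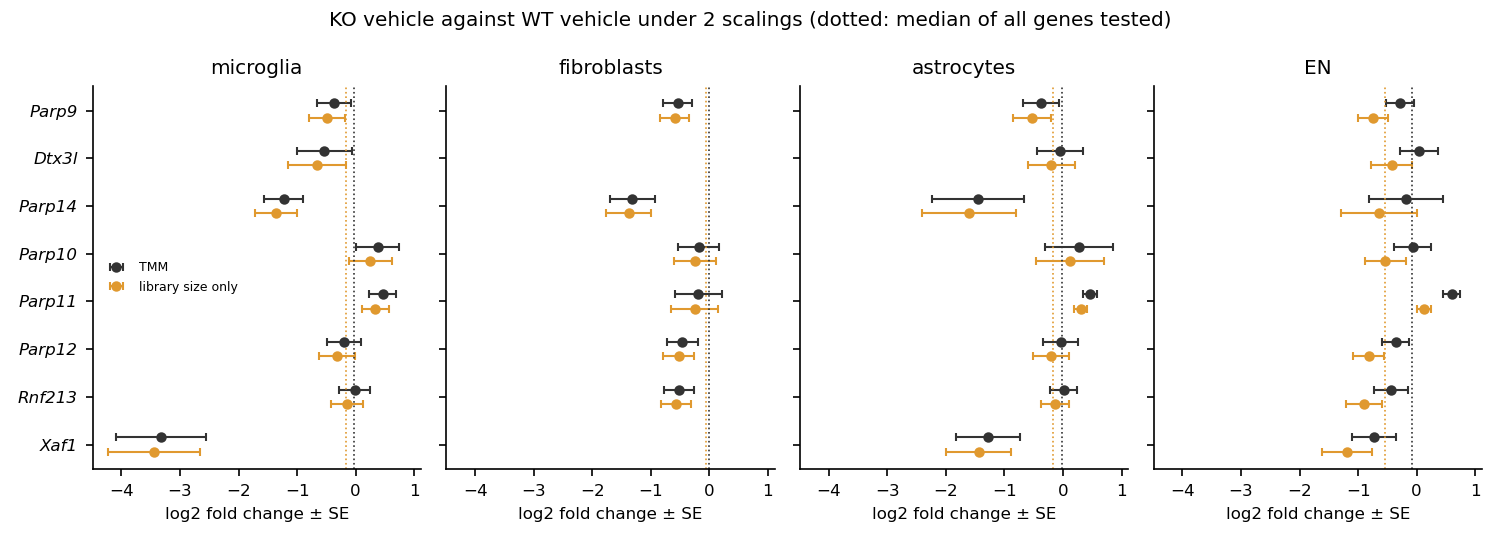
Log2 fold change of Ifnar1-/- vehicle against WT vehicle (horizontal axis, point, with the SE as a bar) of the 8 genes (vertical axis) in 4 classes, with TMM scaling in black and library size alone in orange, and the median of all genes as a dotted line of the same colour. In microglia Xaf1 lies at -3.33, on 2 UMIs in Ifnar1-/- vehicle, and Parp14 at -1.23 with TMM, and in EN the dotted lines stand apart, at -0.08 and -0.54.

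The genes around the 8 were read from lists. These were chosen with earlier results of these data known, so their calls in WT DMXAA are a description. Of 11 other PARP family members, only Zc3hav1, which encodes the antiviral zinc-finger protein ZAP, was called in WT DMXAA, in microglia (1.30 ± 0.18, beside 1.8% of all genes called), EN (1.72 ± 0.27, 0.124%) and dentate granule neurons (2.07 ± 0.36, 0.137%). The 11 had a median log2 fold change of 0.21 in microglia against 0.02 for all genes. None of 4 other Deltex genes, 10 erasers and readers of ADP-ribose or 10 genes of the XIAP pathway was called for DMXAA in either genotype in any class. With at most 1.8% of all genes called in any class, a count of 0 in lists of this size says nothing particular about them. From the list of genes between the receptor and ISGF3, Stat2 and Irf9 were called in WT microglia (2.58 ± 0.34 and 1.25 ± 0.29, beside 1.8% of all genes) and in WT astrocytes (1.95 ± 0.29 and 2.19 ± 0.26, 0.225%). Irf9 was also called in EN (1.52 ± 0.20, 0.124%), OPC (2.84 ± 0.36, 0.16%) and oligodendrocytes (2.17 ± 0.34, 0.0247%). Further calls of Irf9 were in dentate granule neurons (2.02 ± 0.27, 0.137%), CA1 neurons (1.35 ± 0.20, 0.0463%) and the choroid plexus (1.11 ± 0.26, beside 41 of all 9054 genes). In Ifnar1-/- mice no gene of these lists was called for DMXAA, as no gene at all was in the fit over all 4 groups.

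Of 74 genes within 200 kb of the 8, 30 were tested in microglia and the only one called in WT DMXAA, where 1.8% of all genes were, was A930037H05Rik, antisense to Rnf213, with a log2 fold change of 3.27 ± 0.59 against 2.63 ± 0.25 for Rnf213 itself. None was called in the other classes or in Ifnar1-/- mice. The counting strand was not stated, and how reads were divided between A930037H05Rik and Rnf213 was not tested. Over the 16 microglial libraries the genes whose log2 CPM was most like that of Rnf213 included Ifi213 (r = 0.97), Oas2 (0.97), Trim30a (0.97) and Ifit2 (0.97), of 8954 genes, and those most like Parp14 included Eif2ak2 (0.97), Ddx60 (0.96), Usp18 (0.96) and Trim30d (0.95). These correlations describe libraries that share the split between WT DMXAA and the rest, which alone can bring genes together. Among the 8 themselves, Parp12 ranked 16 and Parp14 27 in likeness to Rnf213, whereas Parp10 ranked 199 and Parp11 449.

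The molecules came from different classes. In WT DMXAA, microglia gave 61.5% of all Parp14 UMIs and 37.8% of those of Dtx3l. Rnf213 was spread over EN (28.2%), microglia (24.1%) and astrocytes (22.9%). Xaf1 came mainly from oligodendrocytes (29.9%) and EN (29.4%), so that its changes in microglia, although large, concerned 14.6% of its molecules.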

How the data were processed

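Hippocampal nuclei in 16 libraries from male mice, 4 per group, were profiled with 10x Chromium 3′ v3.1. The authors deposited raw UMI counts per gene and barcode, already filtered to called cells; per the labels these came from Cell Ranger 3.1.0 on mm10 (the file headers give 6.1.2), and the study's methods state a pre-mRNA reference. Values from Seurat 3.0 and the study's single-nucleus test (MAST) were not used here.

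Of 155084 barcodes, 118205 had 200 to 4000 genes and at most 5% mitochondrial UMIs, and 108878 remained after removal of doublets at 0.8% per 1000 barcodes. Nuclei were clustered (2000 variable genes, 30 components, Leiden resolution 0.5, 34 clusters) and named from marker lists, with naming thresholds set after the clusters were seen. UMIs were summed per library and class with at least 20 nuclei, and tested with edgeR 4.0.16 (filterByExpr, TMM, quasi-likelihood F test, R 4.3.3) over all 4 groups, with Benjamini-Hochberg adjustment over all genes of a class and contrast. Calls required a log2 fold change beyond 0.1 in size and an adjusted p under 0.05. For choroid plexus 12 libraries qualified.

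The 8 genes and the lists were chosen with earlier results of these data known. Named genes were the 8, every called gene of the fixed lists and of the genes within 200 kb, and the 5 genes most like Rnf213 and Parp14 over log2 CPM with a prior count of 1; results that need a withheld item are not reported here. On simulated microglial counts for WT DMXAA against WT vehicle, 45.4% of 97 genes with a log2 fold change of 1 in size and 97.9% of 97 genes with 2 were called. The changed genes were not sparse, all genes had the same fixed spread and no library stood apart. These percentages therefore do not tell how often real changes were called, in WT or in Ifnar1-/- mice. Alternatives were DESeq2 1.42.0, limma 3.58.1, no count filter, 1 genotype at a time, doublets kept, resolution 1.0 and each library left out, and, added after seeing the data, scaling without TMM, summed ratios of sparse genes with a library left out, and the IRF element AANNGAAA. Replicate numbers follow deposit order and pair no animals. The labels do not state whether each library is a separate animal. Promoters are from RefSeq; those of Parp9, Parp10 and Parp14, and protein sequences, were not used here. Depths and intervals cover counting error only.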

Additional observations from a re-analysis of the deposited data

Results flagged for a closer look

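Among 128 groups of 4 libraries, 10 had 1 library whose gap to the nearest other, relative to the group's range, exceeded Dixon's 95% critical value, and chance gives about 1 in 20. That share holds for independent groups. These groups are genes and classes of the same 16 libraries, so nothing is read from the count of 10. In 7 of the 10, WT DMXAA replicate 1 was the high library: Parp9 at 71.8 CPM, Parp14 at 104 CPM, Parp12 at 81.0 CPM and Rnf213 at 250.2 CPM in astrocytes, Parp10 at 80.5 CPM in microglia, and Parp12 at 63.5 CPM in OPC and 59.7 CPM in oligodendrocytes. The others were WT vehicle replicate 2 for Parp9 in microglia (81.8 CPM), WT vehicle replicate 1 for Parp11 in oligodendrocytes (17.1 CPM), and Ifnar1-/- DMXAA replicate 2 for Rnf213 in astrocytes (46.5 CPM).

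The log2 fold change of Rnf213 with DMXAA was larger in WT than in Ifnar1-/- mice by 2.79 in microglia and by 2.37 in OPC. The WT part of this difference was known when the gene was listed, so the difference is given without a test.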

How the results depend on the processing

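No paired analysis was possible because the groups compared share 0 sample numbers in the labels, and the replicate numbers used here (1 to 4 in each group) follow deposit order only. The counts of the 8 genes called in WT DMXAA against vehicle moved with the method. Calls over all genes are given below for only some of the settings, and nothing is read from these counts. In microglia (5) the count stayed at 5 to 7. In astrocytes (4) it was 7 with DESeq2, 1 with WT libraries alone and 2 to 7 with a library left out, being 7 without WT DMXAA replicate 3 and 2 without WT vehicle replicate 2, 3 or 4. In EN (3) it was 5 with DESeq2, 0 with WT libraries alone and 2 to 5 with a library left out, 5 without WT DMXAA replicate 3 or 4. In OPC (3) it was 6 without a count filter, 1 with WT libraries alone, 1 without TMM and 1 to 4 with a library left out, 1 without WT DMXAA replicate 1 or WT vehicle replicate 4. In oligodendrocytes (0) it was 0 to 2, and 2 without WT DMXAA replicate 3.

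For Ifnar1-/- DMXAA against vehicle the count, genes too sparse in these mice included, was 0 in all 5 classes and 23 settings, the lowest adjusted p of any of the 8 genes being 0.119, in EN. For vehicle mice of the genotypes, microglia (2) gave 1 to 2 with a library left out, Parp14 being lost without Ifnar1-/- vehicle replicate 2 or 4 or WT vehicle replicate 2, 3 or 4. Astrocytes (1) gave 2 with limma, 2 with doublets kept, 0 without TMM and 0 to 3 with a library left out (0 without Ifnar1-/- vehicle replicate 2, 3 without WT DMXAA replicate 1). EN (1) gave 4 without TMM, and oligodendrocytes (0) gave 0 to 1 (1 without WT DMXAA replicate 3 or WT vehicle replicate 1). These counts include genes that passed the count filter only through libraries outside the contrast. They were Xaf1 in microglia, Dtx3l, Parp10, Parp14 and Xaf1 in astrocytes, and Parp14 in EN. With all libraries, 13% of all genes were called in microglia, 29.7% in astrocytes, 49.2% in EN and 3693 of 12146 in oligodendrocytes. Nothing is read from the counts. No value changed sign among called values.

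Counts over all genes moved further. In WT microglia 161 genes were called, 57 with WT libraries alone and 733 without WT DMXAA replicate 3. In WT astrocytes 30 became 66 with DESeq2, 4 with WT libraries alone and 179 without that replicate. In WT EN 22 became 43, 6 and 49, in OPC 15 became 94 without a filter, 7 and 98, and in oligodendrocytes 3 became 25, 0 and 295. In Ifnar1-/- mice alone 89 microglial, 124 astrocyte, 43 OPC and 4 oligodendrocyte genes were called against 0, and 58 OPC genes without a filter. Between vehicle mice of the genotypes 1166 microglial genes were called, 2764 with doublets kept and 604 to 2803 with a library left out. The causes were not tested. Xaf1 rested on 2 UMIs in Ifnar1-/- vehicle microglia.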
